A study of Homo sapiens with 11 samples.

Results

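Heart organoids (cardioids) grown with PD173074, an inhibitor of FGF receptors, were compared with cardioids grown without it. Both groups came from H9, a human embryonic stem cell line, and were collected on day 42.5 for droplet single-cell RNA sequencing. The groups were taken from the treatment label, which gives neither the dose nor the days on which the inhibitor was present, and no label says that the cardioids of a group came from separate cultures. All cells carry the genome of this 1 line, and the cardioids were taken apart with a dissociation kit before capture. Of 16314 cells in the series that had at least 1000 UMIs (unique molecular identifiers, each counting 1 captured RNA molecule), at least 500 genes and at most 30% mitochondrially encoded UMIs, 8131 came from cardioids, 4597 with PD173074 and 3534 without it. The other 8183 came from a 2D culture of the same line, whose levels are given as a reference. Genes were compared over all cardioid cells, over cells in which *TNNT2* and *MYH6* together made up at least 0.15% of UMIs (called gated cells here), and over the cells below that share. These 2 genes encode cardiac troponin T and the alpha myosin heavy chain, and they define the gated cells, so their own levels there are no result.

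FGF ligands bind receptor tyrosine kinases that switch on the RAS and ERK cascade, and ERK in turn induces its own brakes, among them the DUSP phosphatases and the SPRY and SPRED proteins, together with the ETS factors *ETV4* and *ETV5*. In the embryonic heart FGF signalling helps to expand progenitors and to hold ventricular identity. Atrial identity depends on the nuclear receptors encoded by *NR2F1* and *NR2F2*, the sinus node on *SHOX2* and *ISL1*, and the ventricle on Iroquois factors such as *IRX4*. Cells around the atrioventricular canal express *BMP2*, *TBX3* and *TBX2* and make a hyaluronan-rich matrix called cardiac jelly.

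The 3 libraries with PD173074 and the 5 without it were repeat runs of 1 set of droplets each, since runs of a group shared at least 99.3% of their barcodes and runs of different cardioid groups at most 0.737% (7 to 28 barcodes). Each group is therefore 1 sample, no difference between the groups has a replicate check, and no p-value was computed. Runs held 36127841 to 37765195 UMIs with PD173074 and 12266166 to 24495291 without it. Run 3 without PD173074 stood apart from its 4 fellow runs: of the 392 genes separated most clearly in gated cells it held the lowest or highest of the 5 values for 298. Any run holds some such extremes, and no share over all genes is given here. Run 3 had the least UMIs, and for *MYL7*, for example, it stood at 3225 CPM (UMIs of the gene, with all UMIs of the cell set scaled to 1000000) against 2656 to 2709 CPM in the other 4. The runs with and without PD173074 overlapped for 0 of those 392 genes. These genes were chosen on the same runs for their separation, so this was nearly fixed in advance. The spread of the runs shows technical differences only, since runs of a group share their cells. Counting error did not cover that spread for run 3. Its 4 pairs with fellow runs had a chi-square per degree of freedom of 6.50 to 7.08 over summed gene counts. Counting error alone gives about 1 or less, and the other pairs of runs within a cardioid group had at most 0.736. Levels given for a group pool the UMIs of its runs, so a deeper run weighs more. All 95% intervals below cover counting error only. In gated cells mitochondrially encoded genes took 4.24% of UMIs with PD173074 and 3.67% without it, and ribosomal protein genes 11.3% and 8.998%.

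Fewer cells passed the gate with PD173074. They were 3365 of 4597, or 73.2% (exact binomial interval 71.9 to 74.5), against 3102 of 3534 without it, or 87.8% (86.7 to 88.8), and 86.4% in the 2D culture. Shares from 0.10% to 0.20%, near the gate, were found in 221 cells with PD173074 and 169 without it. Above the gate the order turned: 345 cells (7.505%) with PD173074 and 114 (3.23%) without it had a *TNNT2* and *MYH6* share from 1% to 2%, so that the difference in gated share, -14.6 percentage points, was 4.34 points with a gate at 1.0%. All 10 genes of the cardiomyocyte marker list, which includes *TNNT2* and *MYH6*, reached 10 CPM in gated cells, but they did so outside the gate too. With and without PD173074 the list summed to 28212 and 21218.5 CPM in gated cells and 1629 and 1851 CPM outside the gate. In gated cells *ACTC1*, the cardiac actin, was at 2477 CPM in the treated group and 2481 CPM in the other. Markers of immune and pluripotent cells and haemoglobin genes were below 10 CPM there.

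**Figure D1:**
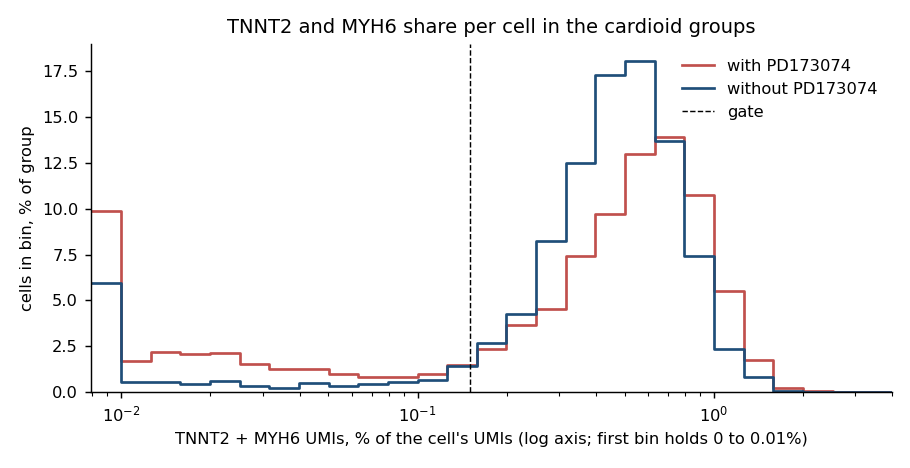
Percent of the cells of each cardioid group (vertical axis) by the share of a cell's UMIs that came from *TNNT2* and *MYH6* (horizontal log axis; the dashed line is the gate at 0.15%). The group with PD173074 has more cells at the far left, outside the gate, and also more cells above 1%.

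In gated cells 224 of 8068 genes at 20 CPM or more were higher with PD173074 by more than 2-fold over their whole interval (2.78% of genes) and 168 were lower (2.08%). The median log2 ratio of all genes at 10 CPM or more was -0.07. The genes highest with PD173074 included *NR2F1*, *SHOX2*, *FGF12*, which encodes an intracellular regulator of sodium channels, and *ALDH1A1*, a retinaldehyde dehydrogenase. Among the lowest were *MASP1*, a complement protease enriched in ventricular cells, and *NEFM*, a neurofilament subunit. *MASP1* stood at 4.49 to 5.24 CPM over the 3 runs with PD173074 and at 146 to 174 CPM over the 5 runs without it (pooled 4.96 and 153, log2 ratio -4.94, interval -5.22 to -4.68). The 2D culture had 176 CPM of it, near the cardioids without PD173074. *NEFM* had 3.89 CPM with PD173074 and 75.6 CPM without it (2D culture 44.4). *FGF12* had 164 CPM with PD173074 and 18.6 CPM without it, with the 2D culture at 13.0 CPM (log2 ratio 3.14, from 2.97 to 3.30). Other genes far lower with PD173074 were *GRAMD1B*, a cholesterol transporter at membrane contacts (22.6 against 258 CPM), *JCAD*, a junctional protein (15 against 183 CPM), the glutamate receptor subunit *GRIA4* (20.1 against 189 CPM), and *HS3ST3A1*, which modifies heparan sulfate, the co-receptor of FGFs (19.2 against 181 CPM). *FBN2*, the microfibril protein fibrillin 2, was named after its values were seen, at 833 against 4008 CPM.

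**Figure D2:**
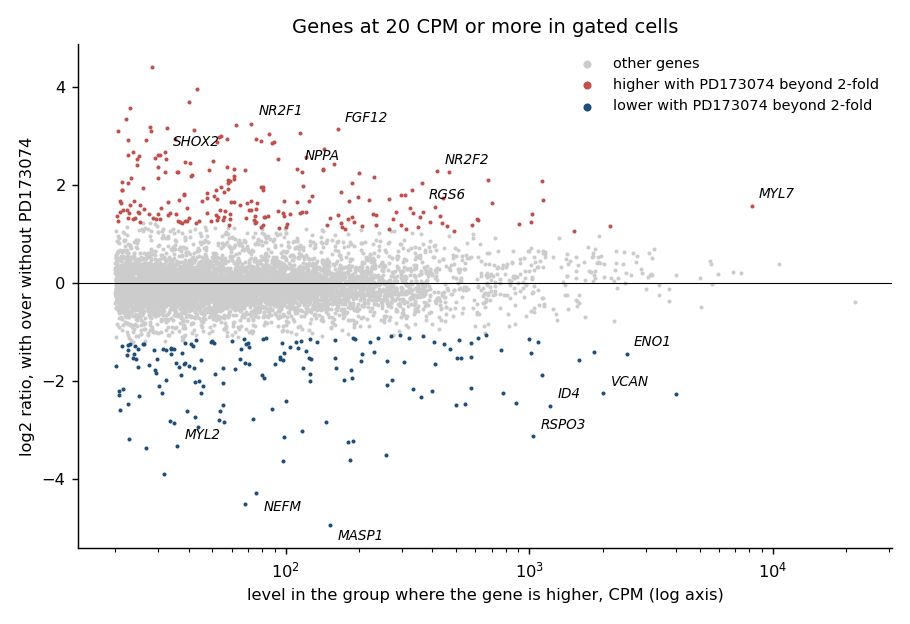
Each point is a gene at 20 CPM or more in gated cells, by its level in the group where it is higher (horizontal log axis) and its log2 ratio with over without PD173074 (vertical axis). Coloured points are the 224 genes higher and the 168 lower beyond 2-fold; *MASP1* lies lowest of the labelled genes, at -4.94.

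More of the FGF and ERK feedback genes were lower than higher in gated cells with PD173074. For this and every list below, higher or lower means at least 10 CPM in the group with more of the transcript and an interval wholly beyond 1.5-fold, which held for 5.45% of all genes on the higher side and 4.53% on the lower side. Of 10 measured members of 19 listed, 5 were lower and 2 higher, with a median log2 ratio of -0.73. *ETV5* stood at 2.75, 2.78 and 2.87 CPM in the runs with PD173074 and at 16.3 to 18.1 CPM in those without it. Its log2 ratio was -2.59 (interval -2.99 to -2.20), and the 2D culture, at 35.0 CPM, was higher than both. *SPRED2* and *SPRED1*, which hold back RAS, stood at 10.1 against 29.7 CPM and 36.6 against 72.2 CPM. *CCND1*, the cyclin D1 gene, stood at 32.2 against 94.7 CPM, and *DUSP6*, the cytoplasmic ERK phosphatase, at 11.0 against 21.2 CPM. *ETV4*, at 0.358 and 0.356 CPM, and *SPRY4*, at 1.97 and 2.96 CPM, were under 10 CPM in both groups. The higher members were *DUSP5*, a nuclear ERK phosphatase (68.0 against 37.8 CPM), and *EGR1*, an immediate early factor (265 against 80.7 CPM). *EGR1* is also in the immediate early and dissociation list, 15 of whose 21 measured members were higher; what part dissociation had in it was not tested. Of 8 measured FGF ligands and receptors 3 were lower and 1 higher, with a median of -0.12. The lower ones were ligands: *FGF18* stood at 9.44 against 45.02 CPM, *FGF9* at 11.6 against 26.5 CPM and *FGF7* at 9.13 against 17.3 CPM. *FGF7* went the other way, at a log2 ratio of 0.52 (interval -1.24 to 2.92), in cells with a *TNNT2* and *MYH6* share from 1% to 2%. The ligands *FGF10* (18.9 and 11.0 CPM) and *FGF2* (14.4 and 11.2 CPM) did not pass the threshold. The receptor *FGFR2* was higher (112 against 59.0 CPM), and *FGFR1* stood at 47.0 and 45.1 CPM (0.06, interval -0.07 to 0.19). *FGFR3* was under 10 CPM in gated cells of both groups.

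Atrial genes were higher and ventricular genes lower in gated cells with PD173074. Of 14 measured atrial genes, 8 were higher and 0 lower, with a median log2 ratio of 1.02. *NR2F2* stood at 417 to 421 CPM over the runs with PD173074 and 70.7 to 89.0 CPM over those without it, where the lowest value was that of run 3. The log2 ratio of the pooled levels, 419 and 86.3 CPM, was 2.28 (interval 2.20 to 2.36), and the 2D culture had 22.5 CPM. *NR2F1* stood at 72.4 and 7.59 CPM (3.25), with 0.0928 CPM in the 2D culture. *NPPA*, the gene of the natriuretic peptide of the atria, stood at 111 and 22.3 CPM (2.32), and *MYL7*, the atrial myosin light chain, at 8164 and 2736 CPM (1.58). Both were lowest in the 2D culture, at 12.3 and 1721 CPM. The other 4 higher members were *TBX5*, a T-box factor of the atria and left ventricle (297 against 171 CPM), *GNAO1*, a G protein subunit (52.2 against 15.9 CPM), *HEY1*, a Notch target (21.0 against 7.71 CPM), and *SLN*, the atrial calcium pump inhibitor sarcolipin (14.6 against 6.11 CPM). *SLN* lay mostly outside the gate, which held 11.4% of its UMIs with PD173074 and 14.2% without it. Its log2 ratio of 1.25 turned to -1.70 once gated cells with stromal or epithelial marker genes at 0.15% or more of UMIs were left out. The atrial light chain *MYL4* stood at 2420 and 1853 CPM (0.39), below 1.5-fold.

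Of 17 measured ventricular genes 12 were lower and 2 higher, with a median of -1.85. All 5 Iroquois genes measured, *IRX1* to *IRX5*, were lower, among them *IRX3*, a factor of the ventricular conduction system (7.72 against 53.4 CPM), and *IRX4*, the ventricular factor (14.8 against 87.9 CPM, -2.57). The inward rectifier channel *KCNJ2* stood at 3.67 against 18.1 CPM and the light chain *MYL3* at 35.0 against 126 CPM. The ventricular light chain *MYL2* had 3.54 CPM with PD173074, 35.8 CPM without, and 92.4 CPM in 2D (log2 ratio -3.33, from -3.68 to -3.01). It was found in few cells of either group: after every cell was thinned to 2000 UMIs, 0.559% of gated cells with PD173074 and 1.54% of those without it had a *MYL2* UMI. *MYH7*, the beta myosin heavy chain, stood at 12.5, 38.6 and 120 CPM in the same order. The *MYL2* ratio was -3.96 in gated cells with a *TNNT2* and *MYH6* share from 0.15% to 0.5% and -1.22 in those from 0.5% to 1%. *CD36*, a fatty acid transporter, and *HAND1*, a factor of the left ventricle, were the 2 higher members, at 24.6 against 4.67 CPM and 46.2 against 25.8 CPM.

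**Figure D3:**
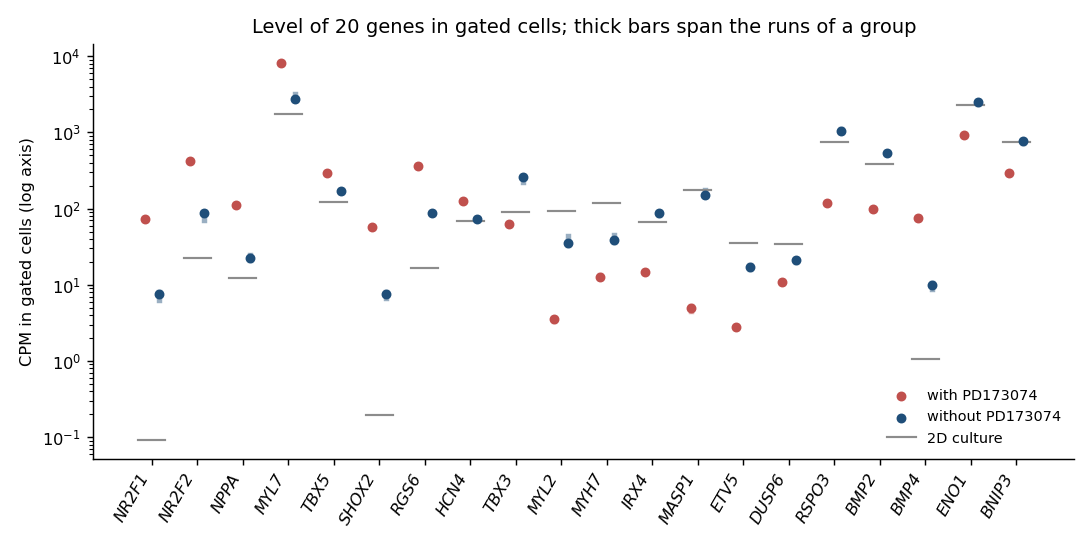
Level in gated cells (CPM, vertical log axis) of 20 genes with PD173074 and without it; points pool the runs, thick bars span the runs and grey lines mark the 2D culture. *NR2F2*, at 419 CPM with PD173074, is above the 86.3 CPM without it, and *MASP1*, at 4.96 CPM, is below 153 CPM.

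Most measured genes of the sinus node and conduction list were higher with PD173074, while *TBX3*, *TBX2* and *MSX2* of the same list were lower. Of 18 measured sinus node and conduction genes 12 were higher and 3 lower, with a median of 1.11. *SHOX2* stood at 56.9 to 57.6 CPM over the runs with PD173074 and 6.63 to 7.95 CPM over those without it (log2 ratio 2.93, from 2.68 to 3.20), while the 2D culture had 0.195 CPM. *RGS6*, which dampens vagal G protein signalling, stood at 362 against 88.0 CPM, and *BMP4* at 75.4 against 9.88 CPM. *ISL1* stood at 18.8 against 4.64 CPM. The pacemaker channel *HCN4* stood at 125 against 73.7 CPM, and the calcium channel *CACNA1D* at 1531 against 731 CPM. The 3 lower members were *TBX3* (61.9 against 262 CPM, -2.08), *TBX2* (50.1 against 87.4 CPM) and *MSX2* (74.7 against 334 CPM), all of them transcriptional repressors. For *TBX3* the 2D culture, at 89.6 CPM, was nearer to the cardioids with PD173074.

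These differences were also seen as shares of cells. After thinning to 2000 UMIs, *NR2F2* was detected in 48.1% of gated cells with PD173074 and 13.7% without it, *NR2F1* in 12.1% and 1.71%, *NPPA* in 13.2% and 3.19%, and *SHOX2* in 7.09% and 1.33%. *MYL7* was found in 96.6% and 75.5%, and *HCN4* in 22.8% and 13.3%. On the other side, *MASP1* was detected in 0.580% and 24.0%, *RSPO3* in 15.5% and 65.7%, and *TBX3* in 10.8% and 32.5%. In the cells outside the gate, which should lack atrial muscle genes, *MYL7* was found in 32.5% and 21.5%, *NPPA* in 0.563% and 0.3%, and *NR2F1* in 0.985% and 0.405%. The gated shares were above these. There *NR2F2* was found in 33.3% and 20.5% and *SHOX2* in 3.29% and 1.36%. Without PD173074 the *NR2F2* share was above the gated one and the *SHOX2* share near it. Of 12 measured atrial genes outside the gate 1, *NR2F2*, was higher and 2 were lower. Of 17 sinus node and conduction genes *SHOX2*, *RGS6* and *CACNA1D* were higher and 2 lower. Without the 5% of cells with the most UMIs *NR2F2* was at a log2 ratio of 0.78 and *SHOX2* at 1.27. Before thinning, the median gated cell held 6064 and 5035 UMIs and the median cell outside the gate 8474 and 5446. Thinning left out 263 gated cells with PD173074 and 238 without it, on average per run. Unthinned, *NR2F2* was detected in 71.0% and 25.4% of gated cells.

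**Figure D4:**
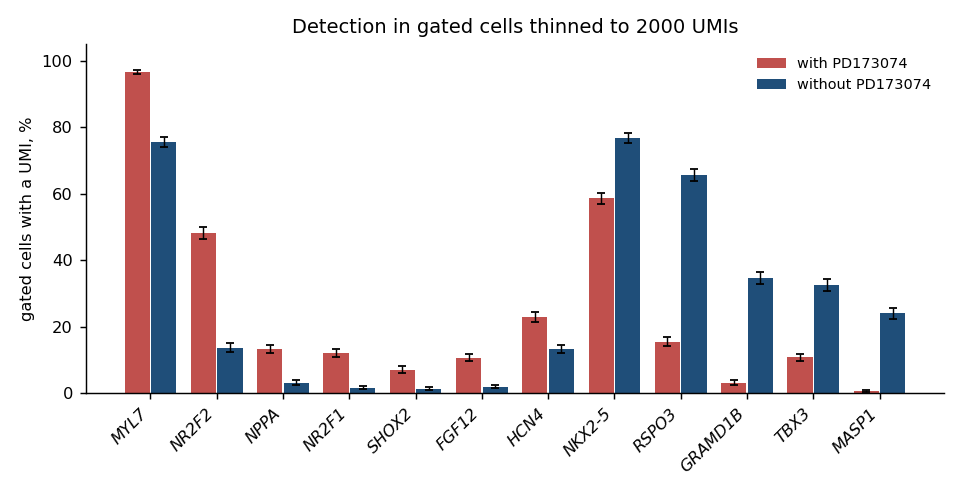
Percent of gated cells with at least 1 UMI of each gene after every cell was thinned to 2000 UMIs; error bars are exact 95% binomial intervals for counting error. *MASP1* was found in 0.580% of cells with PD173074 and 24.0% without it, and *NR2F2* in 48.1% and 13.7%.

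The sarcomere list differed less, but it leaves out *MYL7*, *MYL2*, *MYL3* and *MYH7*, which were higher or lower in the atrial and ventricular lists above. Of 25 measured sarcomere genes 2 were higher and 1 lower, with a median of 0.02: *DES*, the desmin gene (84.4 against 33.0 CPM), and *LDB3*, a protein of the Z-disc, were higher, and *ACTA1*, the skeletal actin, was lower. *TTN*, the titin gene, stood at 3999 and 3575 CPM. Of 17 calcium handling genes 3 were higher and 1 lower. The higher ones were *ATP2A2*, the pump that refills the sarcoplasmic reticulum (907 against 392 CPM), the L-type channel *CACNA1C* (1020 against 434 CPM), and *SLN*. As given above, *SLN* lay mostly outside the gate and changed sign without gated cells that had stromal or epithelial markers. The lower one was the channel subunit *CACNB2* (1048 against 1690 CPM). Of 17 core heart factors *TBX5*, *TBX20*, *HAND1* and *ISL1* were higher and *NKX2-5*, a factor of early cardiomyocytes that represses the sinus node programme, was lower. *NKX2-5* stood at 485 to 495 CPM over the runs with PD173074. Without it run 3 had 624 CPM and the other 4 runs 901 to 916 CPM. *GATA4* stood at 391 and 321 CPM, below 1.5-fold.

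Secreted signals of the BMP and WNT pathways were among the clearest differences in gated cells. Of 17 measured BMP and TGF-beta genes 9 were lower and 1 higher, with a median of -0.64. The ligand *BMP2* stood at 96.1 to 99.8 CPM with PD173074 and 540 to 549 CPM without it, and *ID4*, an inhibitor of bHLH factors, at 215 and 1221 CPM (-2.50). The BMP targets *ID1* (261 against 424 CPM) and *ID3* (522 against 815 CPM) were lower by less. *BMP4* was the 1 higher member. *RSPO3*, a secreted amplifier of WNT signalling, had 119 CPM with PD173074 and 1035 CPM without it, at a log2 ratio of -3.12 (-3.18 to -3.06), and the 2D culture had 737 CPM. Its relative *RSPO2* stood at 8.82 against 53.5 CPM. Of 16 WNT genes these 2 were lower and 5 higher, among them the antagonist *SFRP5* (24.6 against 4.30 CPM), while *AXIN2*, a common read-out of canonical WNT signalling, stood at 34.1 and 30.2 CPM. In the Notch list 4 of 6 measured genes were higher and 0 lower, among them the ligand *JAG1* (69.6 against 22.4 CPM). Of 11 retinoic acid genes 3 were higher and 3 lower: the synthetic enzyme *ALDH1A1* stood at 62.4 against 6.73 CPM and its relative *ALDH1A2* at 6.20 against 20.2 CPM. *VEGFC*, a growth factor of lymphatic vessels, was higher (199 against 42.4 CPM), and *VEGFA* (62.0 against 114 CPM) and its receptor *KDR* (41.6 against 96.6 CPM) were lower.

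Of 8 measured cardiac jelly genes 2 were lower and 0 higher in gated cells, with a median of -0.46. *VCAN*, the versican gene, stood at 425 against 2010 CPM and *HAS2*, the hyaluronan synthase, at 20.6 against 147 CPM. *HAPLN1*, whose product links hyaluronan to versican, stood at 11.9 and 9.02 CPM, and the proteases that cut versican, *ADAMTS1* and *ADAMTS5*, at 83.8 and 60.8 CPM and 22.2 and 16.8 CPM, none of them beyond 1.5-fold over its interval. Of 27 measured collagen and matrix genes, 14 were higher and 0 lower, with a median of 0.74. *COL3A1* stood at 297 against 86.2 CPM, the basement membrane collagen *COL4A1* at 170 against 77.2 CPM, and *LAMA2*, the laminin chain of muscle, at 1317 against 695 CPM. Of 8 measured stromal markers 6 were higher, with a summed level of 789 against 417 CPM. The 2 lists overlap: *COL3A1*, *DCN*, *LUM*, *POSTN* and *FBLN1* are higher members of both. Of the 6 only *PDGFRA* is not in the matrix list, so the stromal count is no separate result. At least 3 stromal UMIs were found in 15.2% of thinned gated cells with PD173074 and 4.55% without it. The defining stromal markers *COL1A1*, at 73.5 and 90.2 CPM, and *COL1A2*, at 104 and 91.2 CPM, were not among the 6, and *TCF21* was under 10 CPM in both groups. Smooth muscle markers summed to 2790 against 1464 CPM, with 5 of 7 higher, among them *ACTA2* (2137 against 955 CPM), which early cardiomyocytes also express, and *MYH11* (30.04 against 6.79 CPM), and 1 lower, the pericyte gene *RGS5* (47.7 against 111 CPM). Their part in the matrix result was not tested. With gated cells that had stromal or epithelial markers at 0.15% or more of UMIs left out (11.3% with PD173074 and 4.26% without it; chosen after seeing the data), 213 genes were higher and 180 lower beyond 2-fold.

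Among genes at 20 CPM or more, the 3 with the highest ratios in gated cells had most of their UMIs outside the gate. *GABRP*, a GABA receptor subunit, stood at 40.0 against 3.11 CPM, *SFRP2*, a WNT antagonist, at 43.4 against 2.78 CPM, and *TCIM*, a regulator of WNT signalling, at 28.3 against 1.35 CPM. In the group with PD173074 the gate held 9.96%, 7.47% and 7.80% of their UMIs, and outside it they stood at 702, 1043 and 649 CPM. A UMI of *GABRP* was found in 1.78% of thinned gated cells with PD173074. Whether these UMIs came from doublets, free RNA or the gated cells themselves was not tested.

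Glycolysis and hypoxia genes were lower with PD173074, both inside and outside the gate. In gated cells 12 of 26 measured glycolysis genes were lower and 1 higher (median -0.59), and of 21 genes of the hypoxia list 12 lay lower and 0 higher (median -0.76). *ENO1*, an enolase, stood at 914 to 933 CPM over the runs with PD173074 and 2380 to 2550 CPM over those without it. *PGK1*, phosphoglycerate kinase, stood at 378 against 1015 CPM, and *LDHA*, lactate dehydrogenase, at 696 against 1839 CPM. The 2D culture was near the cardioids without PD173074 for all 3, at 2317, 1055 and 1617 CPM. Among the hypoxia genes, *BNIP3*, a receptor for removing mitochondria, stood at 294 against 764 CPM, the mitochondrial protein gene *FAM162A* at 452 against 999 CPM, and *DDIT4*, an inhibitor of mTOR, at 20.6 against 42.8 CPM. *EGLN3*, a HIF prolyl hydroxylase, stood at 35.4 against 118 CPM. *HIF1A*, which encodes the hypoxia-inducible factor itself and is controlled mainly as a protein, stood at 121 and 141 CPM. Of 41 nuclear-encoded oxidative phosphorylation genes 0 were beyond 1.5-fold, with a median of 0.07. *MB*, which encodes myoglobin, stood at 164 against 781 CPM, and the muscle enolase *ENO3* at 54.6 against 159 CPM. Cholesterol synthesis had 2 of 22 genes lower, *SC5D* and *STARD4*, with a median of -0.44.

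The core of the DNA element that HIF binds, ACGTG on either strand (CACGT read on the other), was looked for in the 250 bases before the RefSeq start of these genes. It also lies within the E-box CACGTG of bHLH factors such as MYC. Of 27305 promoters in the table, 18.7% held it, and of the 19 listed hypoxia genes with an entry 11 did (57.9%), including 6 of the 8 with an entry that were lower in gated cells. Of the 24 glycolysis genes with an entry 8 held it (33.3%), including 5 of the 12 that were lower. *EGLN3* and *ENO1* were lower and had no match in this window. The match nearest to the start, in capitals, is shown on the gene's strand for 3 genes of each list, to let the letters at widely known members be compared. In *BNIP3* the capitals and the letter before them read CACGTG, the E-box.
*BNIP3*: cgcacgcgccgcACGTGccacacgcaccc
*FAM162A*: cagcgcgtggcgCACGTcctacacgcccc
*DDIT4*: agaacgttgcttACGTGcgcccggagtcc
*PGK1*: aaacggaagccgCACGTctcactagtacc
*LDHA*: cgtgggttcccgCACGTccgccggccccc
*ENO2*: acccgcgctcgtACGTGcgcctccgccgg
In the same order these lie at chr10:131982040-131982068 (minus strand), chr3:122384086-122384114, chr10:72273787-72273815, chrX:78104053-78104081, chr11:18394478-18394506 and chr12:6914450-6914478 (all plus strand) of GRCh38.p14, and the match nearest to the start of *BNIP3* is 133 bases before it. *ENO2*, the neuronal enolase, stood at 25.9 against 65.6 CPM. The ETS site CCGGAAGT, searched in the same way on both strands, was in 3.64% of all promoters and in 0 of 11 FGF and ERK feedback promoters. A match is a description of these letters, and its absence says nothing of the factor.

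Immediate early genes were higher with PD173074, and S phase and mitosis genes leaned higher in gated cells without passing the threshold. Of 21 measured immediate early and dissociation genes, 15 were higher and 0 lower in gated cells, with a median of 1.27. *FOS*, a part of the AP-1 factor, stood at 431 against 168 CPM and *NR4A1*, an orphan nuclear receptor, at 98.0 against 30.9 CPM. Outside the gate the list had 16 higher and 0 lower of 24. Ratios there depended on the deepest cells. Without the 5% of cells with the most UMIs *FOS* was at a log2 ratio of 0.51, under 1.5-fold. *NR4A1* was then at 0.66, *EGR1* at 0.70 and *KLF4*, also of this list, at 0.75. Heat shock and unfolded protein genes had 0 higher and 5 lower of 19 in gated cells, among them *HSPA1A* (162 against 257 CPM). What part stress had in either list was not tested. *MALAT1*, a nuclear RNA, stood at 16515 and 21792 CPM. Of 17 S phase and 21 mitosis genes 0 were beyond 1.5-fold over their whole interval in gated cells. Their medians were 0.23 and 0.39, where that of all genes was -0.07. The S phase list summed to 568 against 539 CPM and the mitosis list to 592 against 451 CPM. *MKI67*, a marker of dividing cells, stood at 28.98 and 18.6 CPM (0.64), with an interval that reached below 1.5-fold. In the neurofilament and adhesion list 10 of 25 genes were higher, among them *CNTN3*, a contactin (79.6 against 10.7 CPM), and 5 lower, including *NEFM* and *NEFL* (14.4 against 117 CPM).

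The differences in gated cells were then taken apart by the *TNNT2* and *MYH6* share. In cells from 0.15% to 0.5% (1281 with PD173074, 1599 without it) 279 genes were higher and 147 lower beyond 2-fold, and in cells from 0.5% to 1% (1736 and 1389) 170 and 156. All 224 higher and all 168 lower genes of the gated cells kept their direction in both of these ranges. The genes were chosen over the gated cells, of which these ranges are parts. Their agreement was thus largely set by that choice and is no separate check. From 1% to 2%, with 345 and 114 cells, 3 genes were higher and 45 lower. There 202 of the 217 higher genes with a ratio and 157 of the 163 lower ones kept their direction. *NR2F2* stood at 536 against 306 CPM in that range (0.80), *SHOX2* at 73.7 against 39.5 CPM (0.88) and *MYL7* at 14706 against 10921 CPM (0.43). These atrial and node ratios were smaller than those over all gated cells. *MASP1* stood at 1.32 against 127 CPM there, and *TBX3* at 71.6 against 373 CPM (-2.38). *DUSP6* stood at 13.4 against 2.999 CPM, the reverse of its order in gated cells, on few UMIs.

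Outside the gate lay 1232 cells with PD173074 and 432 without it, a mixture in which stromal markers were the most widespread. At least 3 UMIs of the stromal list were found in 88.1% of thinned cells with PD173074 and 72.2% without it, of the epithelial list in 48.8% and 41.8%, of the epicardial list in 38.5% and 30.3%, of the cartilage list in 9.62% and 16.0%, and of the endothelial list in 1.86% and 2.59%. Of 7971 genes 51 were higher beyond 2-fold (0.640%) and 168 lower (2.11%). These counts leaned on the deepest cells: without the 5% of cells with the most UMIs 5 were higher and 93 lower, and with every cell thinned to 2000 UMIs 2 and 66.

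Interferon response genes were lower outside the gate with PD173074. Of 20 measured members 14 were lower and 0 higher (median -1.56), where 4.33% of all genes were lower by more than 1.5-fold and 2.60% higher. *IFIT3* stood at 5.25 to 5.50 CPM over the runs with PD173074 and 94.9 to 104 CPM over those without it, and at 3.82 CPM in the 2D culture. *ISG15*, a ubiquitin-like protein induced by interferon, stood at 40.9, 196 and 24.7 CPM in the same order, and *MX1*, an antiviral GTPase, at 1.98, 38.3 and 1.21 CPM. The group without PD173074 was thus the high one of the 3. An *IFIT3* UMI was found in 4.57% of its thinned cells, against 1.07% with PD173074. In gated cells 1 of 11 measured interferon genes was lower and 0 higher.

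Fibrillar matrix was also lower outside the gate. Of 31 collagen and matrix genes 12 were lower and 1 higher, *FBLN1*, with a median of -0.37, the opposite of the gated cells. *COL1A1*, the main collagen of fibroblasts, had 988 CPM with PD173074, 3505 CPM without it and 7302 CPM in the 2D culture (-1.83), and *FN1*, fibronectin, stood at 1141, 3412 and 6359 CPM. *LOX*, which cross-links collagen and responds to hypoxia, stood at 15.9, 174 and 430 CPM. These ratios also leaned on the deepest cells, with *COL1A1* at -0.47 and *FN1* at -0.37 once the 5% of cells with the most UMIs were left out, and *COL1A1* was detected in 56.7% of thinned cells with PD173074 and 53.7% without it. *COL3A1* stood at 1863 and 1696 CPM. *TAGLN*, a smooth muscle and myofibroblast gene, stood at 154 against 846 CPM (-2.46), and at -0.71 without the deepest cells, where *LOX* was at -1.62. The senescence and arrest genes *CDKN1A* and *CDKN2A* stood at 13.9 against 60.7 CPM and 14.97 against 64.5 CPM, with *CDKN2A* at -1.16 without the deepest cells.

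Of 12 measured genes of the liver and gut endoderm list, 3 were higher and 7 lower outside the gate (median -0.87), and of 14 epithelial markers 2 were higher and 1, *KRT7*, lower. *GABRP* stood at 702 against 261 CPM, *VTCN1*, a surface protein, at 184 against 96.1 CPM and *EPCAM*, an epithelial adhesion molecule, at 238 against 185 CPM. The intestinal genes *FABP1* (91.6 against 16.8 CPM), *PHGR1* (109 against 20.1 CPM) and *LGALS4* (109 against 29.6 CPM) and the reproductive hormone gene *GNRH2* (98.0 against 6.43 CPM) were among the highest genes with PD173074. They were found in few thinned cells, *FABP1* in 1.83% against 1.24%, *PHGR1* in 2.11% against 1.61%, *LGALS4* in 2.53% against 1.51% and *GNRH2* in 1.74% against 0.560%, and the counting intervals of all 4 overlapped between the groups. *AFP*, the fetal liver protein (37.4 against 204 CPM), and *SERPINA1*, an antiprotease of hepatocytes (113 against 373 CPM), were lower, with *AFP* found in 1.24% and 3.07% of cells. Without the 5% of cells with the most UMIs *FABP1* was at a log2 ratio of 0.245, *PHGR1* at 0.68, *LGALS4*, now lower, at -0.91, *GNRH2* at 2.55, *GABRP* at 0.86, *VTCN1* at 0.63, *AFP* at -5.12 and *SERPINA1* at -2.89. *CYP26A1*, which breaks down retinoic acid, stood at 35.5 against 9.41 CPM, and *CRABP1*, which binds it, at 624 against 239 CPM (1.39, and 0.82 without the deepest cells). Hypoxia genes had 10 of 22 lower and 0 higher (median -0.74), and glycolysis genes 8 of 25 lower and 1 higher. Of 15 measured FGF and ERK feedback genes 1 was lower, *ETV5*, at 7.61 against 24.7 CPM, and 1 higher, *EGR1* (median -0.41).

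**Figure D5:**
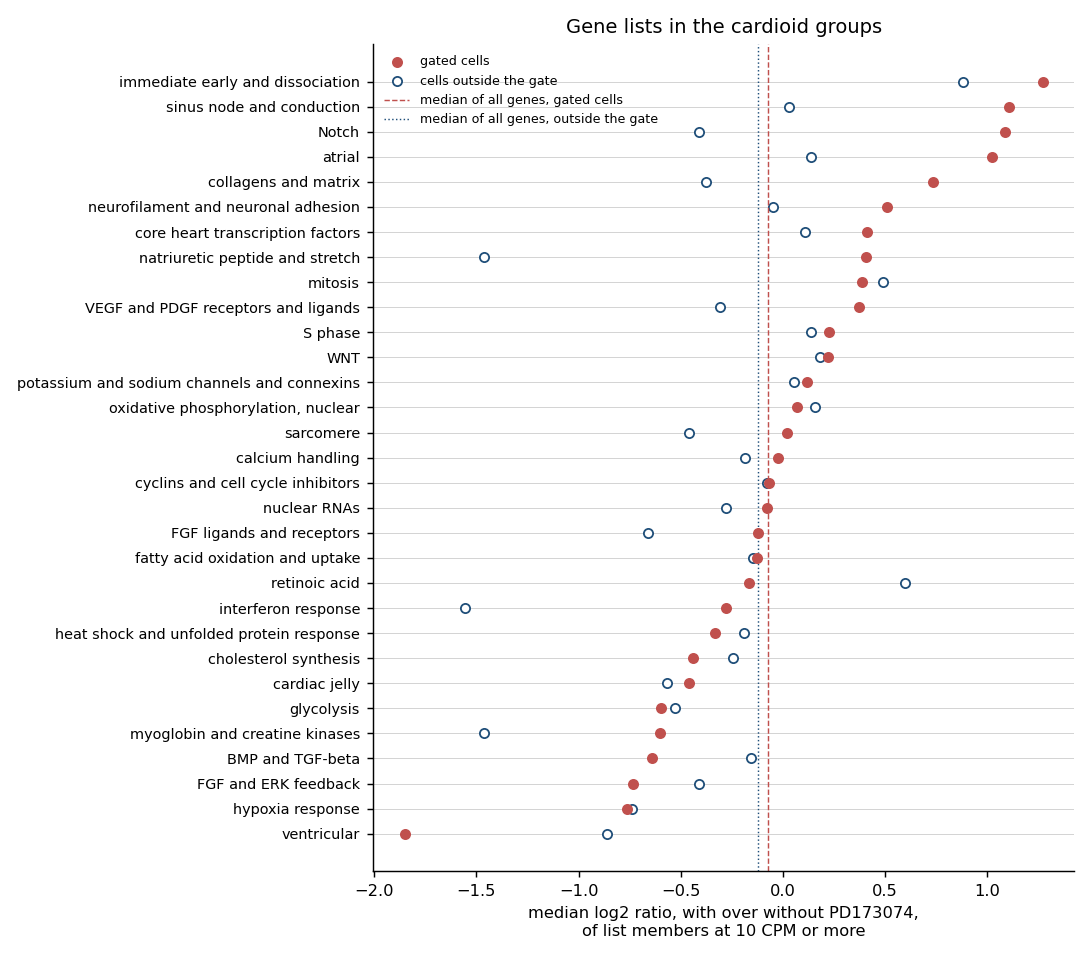
Median log2 ratio with over without PD173074 (horizontal axis) of the measured members of each gene list in gated cells (filled) and outside the gate (open); the vertical lines are the medians of all genes at 10 CPM or more. Hypoxia response genes lie at -0.76 and -0.74, and collagens and matrix genes at 0.74 and -0.37.

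Over all cells, where the share of gated cells also counts, 244 of 8125 genes were higher beyond 2-fold (3.003%) and 161 lower (1.98%), and with the list threshold 6.32% of genes were higher and 4.62% lower. *KLF4*, an immediate early factor of epithelia, stood at 39.2 against 8.36 CPM and *KRT19*, an epithelial keratin, at 609 against 241 CPM. *KRT19* stood at 72.8 and 70.5 CPM inside the gate and 1652 and 1151 CPM outside it, so its values differed more over all cells than in either set. *MYL7* stood at 5506 against 2345 CPM over all cells and *COL1A1* at 384 against 627 CPM. The *COL1A1* order over all cells was the other way, at a log2 ratio of 0.91, without the 5% of cells with the most UMIs.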

How the data were processed

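H9 cardioids with and without PD173074, and a 2D culture, were profiled by droplet single-cell RNA sequencing on day 42.5. The deposited matrices hold raw UMI counts per gene and barcode, which the authors made by aligning to hg38; the submitters' processing notes name Cell Ranger 7.0.0. Cells with at least 1000 UMIs, 500 genes and at most 30% MT- UMIs were kept. Counts were summed over the cells of a set in each run, averaged over runs and then scaled to CPM, so deeper runs weigh more; averaging the CPM of each run instead was an alternative added after seeing the data. A log2 ratio and its exact conditional binomial 95% interval use the mean counts per run rounded to whole UMIs, so at a few UMIs the ratio can differ from that of the printed levels, and a group at 0 counts was set to 3 counts. With 1 sample a group no test was made, so genes were called by size: 20 CPM in the higher group with the whole interval beyond 2-fold, or for gene lists 10 CPM and 1.5-fold. The count steps were tested on simulated data.

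Named genes were the 15 highest and 15 lowest called genes of each cell set, up to 4 members of each list with the largest ratios, and a fixed set of known markers; other list members, and *FBN2*, were named after their values were seen. The lists and cell sets were chosen with earlier results of these data known. No doublet caller was run; leaving out the 5% of cells with the most UMIs was an alternative, beside other scalings, floors, folds, gates, cell filters, thinning and leaving out each run. Leaving out gated cells with stromal or epithelial markers was added after seeing the data. Work was done in Python 3.11.15 with numpy 2.4.6, scipy 1.17.1 and pandas 2.3.3. Sequences and starts are from RefSeq, GRCh38.p14.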

Additional observations from a re-analysis of the deposited data

Results flagged for a closer look

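Run 3 without PD173074 stood apart from the other 4 runs of its droplets. It had the lowest total, 12266166 UMIs, and the fewest barcodes, 3592, and the highest share of cells in the gate (87.9%), of mitochondrially encoded UMIs (3.79%) and of ribosomal protein UMIs (10.3%). In each case its gap to the nearest run, as a part of the whole range, passed a cut for 5 values. Chance alone passes that cut in about 1 in 20 groups. The gaps were 0.745 to 0.957 of the range, and how often chance gives gaps of that size was not computed.

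For 7 genes the ratio with over without PD173074 was beyond 2-fold in opposite directions in gated cells and outside the gate; the difference between the cell sets was not tested. Smooth muscle actin, *ACTA2*, had log2 ratios of 1.16 and -1.17, and the basement membrane collagen *COL4A1* 1.14 and -1.63. *MGP*, an inhibitor of calcification, had 1.39 and -1.15. *NTN4*, a netrin, had 2.97 and -1.38, and *LGR4*, a receptor for R-spondins, 1.38 and -1.19. *GUCY1A2*, a subunit of the nitric oxide receptor, had 1.69 and -1.82, and *ANOS1*, the anosmin gene, 1.32 and -1.915. For *ACTA2* and *NTN4* the value outside the gate turned positive without the deepest cells, to 0.14 and 0.22.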

How the results depend on the processing

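No paired analysis was possible because the runs of a group are repeats of 1 droplet set and no test was made. Leaving out 1 run at a time gave 241 to 249 higher and 159 to 162 lower genes over all cells, 221 to 226 and 165 to 170 in gated cells, 47 to 57 and 164 to 176 outside the gate, and a difference in gated share of -14.8 to -14.28 percentage points; all 2432 values of named genes kept their sign. These runs share cells, so the ranges hold sequencing error only.

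Averaging the CPM of each run, an alternative added after seeing the data, gave 244 higher and 160 lower genes over all cells, 223 and 166 in gated cells and 54 and 167 outside the gate, and moved no log2 ratio of a named gene that passed the list threshold by more than 0.077. The floor and the fold set the counts. Over all cells they were 434 higher and 251 lower with a floor of 5 CPM, 138 and 106 with 50 CPM, 626 and 381 with none, 494 and 402 beyond 1.5-fold, and 110 and 68 beyond 3-fold. In gated cells they were in the same order 361 and 263, 140 and 106, 528 and 367, 462 and 391, and 95 and 70. Outside the gate the lower genes numbered 255 with a floor of 5 CPM, 98 with 50 CPM and 313 with none, and there were 242 higher and 375 lower beyond 1.5-fold and 3 and 73 beyond 3-fold.

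Outside the gate the higher genes were 77 with median-of-ratios scaling, 79 without mitochondrial and ribosomal genes in the total, 166 with the gate at 0.3% and 256 at 1.0%. With every cell weighing the same they were 10 and the lower ones 109, without the deepest 5% of cells 5 and 93, and thinned to 2000 UMIs 2 and 66. A gate at 1.0% left 3 higher and 45 lower genes, as did the range from 1% to 2%, on 345 and 114 cells. The difference in gated share was -12.82 points at a gate of 0.05%, -10.82 at 0.3% and 4.344 at 1.0%.

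Of 6059 values of 140 named genes under the alternatives 34 changed sign. In gated cells at a gate of 1.0% and in the range from 1% to 2%, these were *DES* (-0.26 and -0.25), *DUSP6* (2.44 and 2.44), *FGF7* (0.52 and 0.52), *HAND1* (-0.15 and -0.14) and *HEY1* (-0.38 and -0.42), and *SLN* was at -1.70 without cells with stromal or epithelial markers. Outside the gate they were *GRIA4* (0.78), *MYL3* (0.057), *RSPO3* (0.48) and *TTN* (0.51) at a gate of 0.05%, *GRIA4* (0.088) at 0.1%, and at 1.0% *ACTA2* (0.71), *ADAMTS5* (0.094), *ANOS1* (0.71), *COL4A1* (0.32), *FGF10* (0.30), *GUCY1A2* (0.62), *HAPLN1* (0.26), *LGR4* (0.89), *MGP* (0.14) and *NTN4* (1.65). *COL1A1* over all cells was at 0.20 with every cell weighing the same, 0.17 thinned and 0.91 without the deepest cells, and there *ACTA2*, *ADAMTS5*, *FGF10*, *LGALS4* and *NTN4* outside the gate were at 0.14, 0.49, 0.17, -0.91 and 0.22. The *DUSP6* and *FGF7* ratios at 1.0% rest on a few UMIs per run, rounded to whole numbers. The cause was not tested.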

Other observations

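Ion channel and gap junction genes of gated cells leaned towards PD173074. Of 13 measured potassium and sodium channel and connexin genes 5 were higher and 1, *KCNJ2*, lower. *ABCC9*, a subunit of the ATP-sensitive potassium channel, stood at 35.7 against 7.49 CPM and the slow-conducting connexin gene *GJC1* at 129.6 against 72.4 CPM. *KCNH2*, which carries the rapid delayed rectifier current, stood at 60 against 36.4 CPM. Axon guidance and adhesion genes went both ways: *ROBO2*, a receptor for SLIT proteins, stood at 131 against 578 CPM and the adhesion gene *CADM2* at 175 against 506 CPM, while *NCAM2* stood at 100.3 against 49.7 CPM and the semaphorin *SEMA3C* at 21.2 against 6.91 CPM. In the myoglobin and creatine kinase list 4 of 8 genes were lower and 0 higher, with *CKMT2*, the mitochondrial creatine kinase of muscle, at 14.4 against 28.8 CPM.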
